A study of Mus musculus with 10 samples.

Results

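The cytochromes P450 of families 1 to 3 were described together with Por, the reductase that supplies their electrons, and Ahr, the receptor that regulates family 1. Members were the protein-coding genes whose symbol begins with Cyp1, Cyp2 or Cyp3 and continues with a letter, plus Por and Ahr. This rule found 63 genes, 61 of them P450s, among the 53392 genes of the deposited table. Livers of C57BL/6 mice aged 24 weeks were compared, 5 wild type (WT, replicates 1 to 5) and 5 with a deletion of Fbp1 in the liver (Fbp1-deleted, replicates 6 to 10). The study asked how the loss of Fbp1, which encodes the gluconeogenic enzyme fructose bisphosphatase, changes liver transcripts. Snap-frozen tissue was used for total RNA, and mRNA libraries were made by a method that does not keep the strand. The sources used here do not state the promoter or Cre driver behind the deletion, the sex of the mice or when they last fed.

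These enzymes are haem proteins of the endoplasmic reticulum that add oxygen to drugs, toxins, steroids, fatty acids and bile acids, using electrons passed from NADPH by Por. Hepatocytes express most of them, many in pericentral cells, and several in mice at levels that differ between the sexes. The nuclear receptors CAR (Nr1i3) and PXR (Nr1i2) raise family 2 and family 3 genes in response to foreign compounds, and Ahr does so for family 1.

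Total estimated counts per library were between 17778395 and 23894812. Fbp1 was at 909.6 ± 119 CPM (counts-per-million, SD, n = 5) in WT and 9.39 ± 2.38 (SD, n = 5) in Fbp1-deleted liver, a log2 change of -6.60 (edgeR quasi-likelihood test, adjusted p = 6.13e-11). All 6 hepatocyte markers were present, with summed levels between 48160 and 91660 CPM. WT replicates 4 and 5 stood apart: they held the lung transcript Sftpc at 85.5 and 93.5 CPM and Scgb1a1 at 121 and 174 CPM, against at most 0.242 CPM for either gene in the other 8 libraries. The sum of the 4 lung markers reached 290.3 CPM in WT and lay between 1.34 and 2.04 CPM in Fbp1-deleted liver. The results below are therefore also given without both of these libraries where that changed a call. Xist lay between 342 and 696 CPM in all 10 libraries, and no Y-linked transcript of the 4 checked exceeded 1.77 CPM.

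Many members are near-identical copies, which matters because the authors' estimates divide reads between similar transcripts by a model. Coding sequences at least 90% identical joined 30 members in 10 groups. Cyp2a4 and Cyp2a5 share 98.45% of 1482 coding bases, Cyp2c40 and Cyp2c68 share 98.1%, and Cyp3a41a and Cyp3a41b share 99.87%. Levels of single genes in such groups are uncertain, so sums over groups are given as well. The spans of Por, Ahr and Cyp2a4 overlap noncoding genes on the other strand and that of Cyp2c29 a pseudogene, which adds to the uncertainty of their counts.

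The upstream sequences of Cyp2a4 and Cyp2a5 are shown first because these near-identical copies went apart in Fbp1-deleted liver. Each stretch runs from 250 to 41 bases before the RefSeq start in GRCm38.p6, plus strand, with capitals at the 4 positions of 209 aligned ones where the copies differ (98.09% identity).

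Cyp2a4 (chr7:26306942-26307151): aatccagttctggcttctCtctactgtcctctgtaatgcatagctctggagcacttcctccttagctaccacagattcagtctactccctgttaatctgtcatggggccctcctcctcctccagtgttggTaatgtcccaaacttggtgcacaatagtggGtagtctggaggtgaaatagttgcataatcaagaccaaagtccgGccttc

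Cyp2a5 (chr7:26835089-26835298): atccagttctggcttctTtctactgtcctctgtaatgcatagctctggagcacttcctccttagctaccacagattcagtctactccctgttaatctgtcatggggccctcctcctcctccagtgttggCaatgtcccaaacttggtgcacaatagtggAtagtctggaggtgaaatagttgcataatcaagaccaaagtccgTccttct

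A second set is shown because a sequence shared upstream of Cyp2c and Cyp3a genes joined genes that fell in Fbp1-deleted liver and genes that did not pass the test. The letters CAAAGTCCA, which match a known binding sequence of the hepatocyte factor HNF4A, occurred on either strand within 250 bases before the start of 10 of the 54 members with a RefSeq promoter entry (18.5%), against 0.384% of all 32851 promoters. They lay between 45 and 125 bases before the RefSeq start, all in the orientation of the gene. For Cyp3a11 the GENCODE span of the gene begins farther upstream and includes these letters. The windows are given 5′ to 3′ on the strand of the gene (minus strand of GRCm38.p6 for each gene shown), with the motif in capitals.

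Cyp2c40 (chr19:39812841-39812869): atcattgagaCAAAGTCCAtttggaagag

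Cyp2c67 (chr19:39649149-39649177): atcattgagaCAAAGTCCAtttggaagca

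Cyp2c68 (chr19:39741160-39741188): atcattgaaaCAAAGTCCAattggaagag

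Cyp2c69 (chr19:39886826-39886854): atcattgagaCAAAGTCCAtttggaagag

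Cyp2c70 (chr19:40187332-40187360): aggtcaaactCAAAGTCCAaactctgtgt

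Cyp3a11 (chr5:145879945-145879973): aagagagtacCAAAGTCCAgtgatgcaaa

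Cyp3a16 (chr5:145469804-145469832): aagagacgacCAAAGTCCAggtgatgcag

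Cyp3a41a (chr5:145720213-145720241): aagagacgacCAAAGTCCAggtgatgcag

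Cyp3a41b (chr5:145584807-145584835): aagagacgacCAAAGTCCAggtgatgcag

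Another member with these letters, Cyp2c65, was at 0 in all libraries. Of the 9 that were tested, 4 fell in Fbp1-deleted liver, all in Cyp2c, where 10% of all genes tested fell. Most of these genes are copies of one another, so their matches are not independent. A match describes the sequence and does not show that a factor binds there. The letters AGGTCA, a half-site for nuclear receptors, occurred in 15 of 54 members (27.8%) against 14.0% of all promoters. The Ahr core GCGTG occurred in 10 of 54 (18.5%) against 28.2%, among them Cyp1a1, Cyp1b1 and Por. TTANGTAA, the element of the circadian factors Dbp, Tef and Hlf, was found in 1 member, Cyp2c38 (1.85% against 2.06%).

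Over all P450 members the summed level was 21346 ± 1689 CPM (SD, n = 5) in WT and 17930 ± 1580 (SD, n = 5) in Fbp1-deleted liver. The 2 groups overlapped, since Fbp1-deleted replicate 10 reached 20593 CPM and WT replicate 1 held 19524. P450 transcripts took between 2.01% and 2.45% of the counts of a WT library and between 1.62% and 2.02% of an Fbp1-deleted one. Sums over members carry no test here. In bulk tissue, fewer cells of a type and less RNA per cell cannot be told apart.

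Of the 63 members, 50 passed the filter on low counts and were tested. The 13 others were Cyp2ab1, Cyp2b19, Cyp2b23, Cyp2c65, Cyp2c66, Cyp2d11, Cyp2j7, Cyp2j8, Cyp2j11, Cyp2j12, Cyp2j13, Cyp2w1 and Cyp3a57, and 3 of these (Cyp2c65, Cyp2c66 and Cyp2j7) were at 0 in all libraries. In Fbp1-deleted liver 3 members rose (Cyp2b10, Cyp2d9 and Cyp2d10) and 10 fell (Cyp1a2, Cyp2a5, Cyp2c40, Cyp2c68, Cyp2c69, Cyp2c70, Cyp2d12, Cyp2d26, Cyp2e1 and Cyp2g1), by edgeR's quasi-likelihood test at an adjusted p of 0.05. That was 26.0% of the tested members against 20.6% of all 15392 genes tested. The share that rose was 6.0% against 10.6% of all genes, and the share that fell was 20% against 10%. The groups did not overlap for 2 of the members that rose (4.0% against 6.57% of all genes) and 7 of those that fell (14.0% against 6.89%). The median change of the tested members was -0.14 on the log2 scale, with 34 negative and 16 positive, against 0.01 for all genes tested. With libraries scaled by their totals alone, 2 members rose and 12 fell, and over all genes 1190 rose and 1965 fell in place of 1636 and 1542. Without WT replicates 4 and 5, 2 members rose (4.0% against 7.55% of all genes) and 6 fell (12% against 7.72%). With no filter on low counts the calls of Cyp2c69, Cyp2d26, Cyp2b10, Cyp2d9 and Cyp2d10 were lost (edgeR adjusted p between 0.0683 and 0.116). A single member rose when any 1 of WT replicates 1, 2 and 5 and Fbp1-deleted replicates 6, 7, 9 and 10 was left out.

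**Figure D1:**
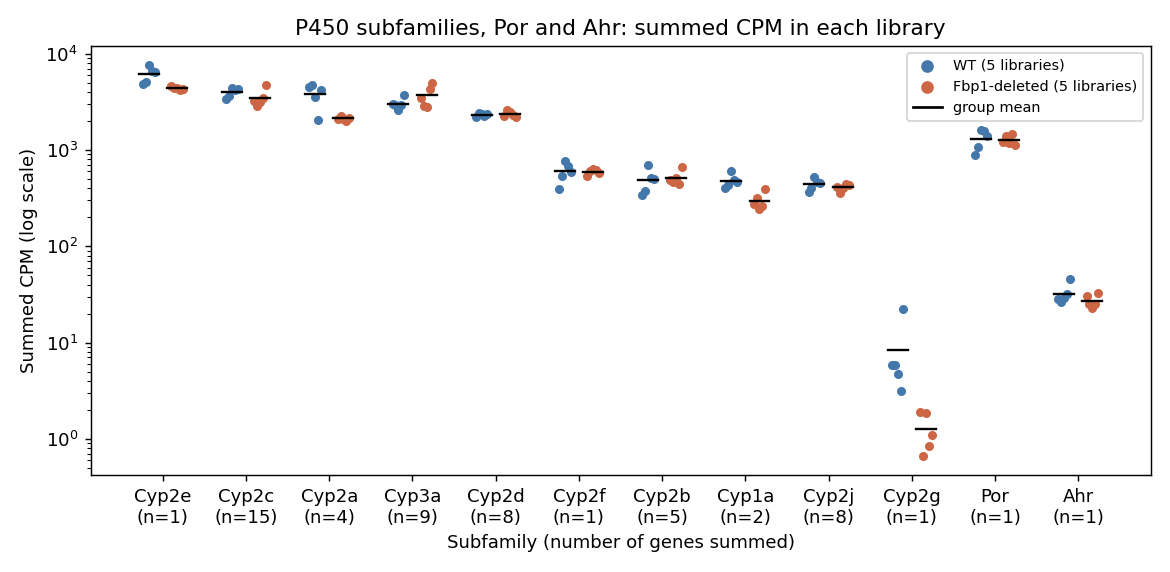
Summed CPM (log axis) of each P450 subfamily, Por and Ahr in each of 10 libraries, WT in blue and Fbp1-deleted in orange, with the group mean as a bar; n is the number of genes summed. Cyp1a, Cyp2e and Cyp2g have no Fbp1-deleted library within the WT range, while Cyp2d means lie at 2331 and 2374 CPM.

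Families and subfamilies differed in level and direction. Cyp1a was at 479 ± 74.7 CPM in WT, from 408 to 600.0, and at 298 ± 59.2 CPM in Fbp1-deleted liver, from 243 to 391, so its groups did not overlap. Cyp2a was at 3824 ± 1083 CPM in WT and 2135 ± 88.4 in Fbp1-deleted liver. Its groups overlapped only through WT replicate 4, at 2072 CPM. Cyp2c was at 4003 ± 459 and 3510 ± 748 CPM, Cyp2b at 486 ± 140 and 511 ± 86.4, and Cyp2j at 445 ± 63.1 and 411 ± 35.0. All 3 overlapped between groups. Cyp2d was nearly level, at 2331 ± 101 and 2374 ± 173 CPM, although 4 of its 7 tested members passed the test, 2 in each direction. Of all genes tested, 20.6% passed it. With library totals alone the log2 ratio of the Cyp2d means turned from 0.03 to -0.06. Cyp3a was at 3032 ± 392 CPM in WT and 3694 ± 943 in Fbp1-deleted liver, and 0 of its 8 tested members passed the edgeR test (3 had an unadjusted p under 0.05). DESeq2 called 2 of them and limma-voom 0.

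Levels between genes were compared as CPM per kilobase of transcript. Cyp2e1 led in both groups, at 3342 ± 614 CPM per kb in WT and 2396 ± 93.5 in Fbp1-deleted liver. It made up 29.4% ± 4.03 (SD, n = 5) of the P450 total on this scale in WT and 25.6% ± 2.34 (SD, n = 5) in Fbp1-deleted liver, with overlapping ranges. Cyp2a5 ranked second in WT, at 1079 ± 386 CPM per kb, and at rank 10 in Fbp1-deleted liver, at 300.0 ± 43.3. Cyp3a11 went from rank 4 to rank 2 (693 ± 315 and 1285 ± 393 CPM per kb). This rank depends on the length used, since per kb of the union of its exons Cyp3a11 was at 319 and 591 CPM, at ranks 8 and 3. Cyp2a4 went from rank 5 to rank 3 (551 ± 172 and 592 ± 38.2 CPM per kb). Cyp2d26 held ranks 3 and 4, at 734 ± 64.9 and 580 ± 67.7 CPM per kb. Spread was wide enough in WT that neighbours among ranks 2 to 6 did not separate beyond 1 SD.

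**Figure D2:**
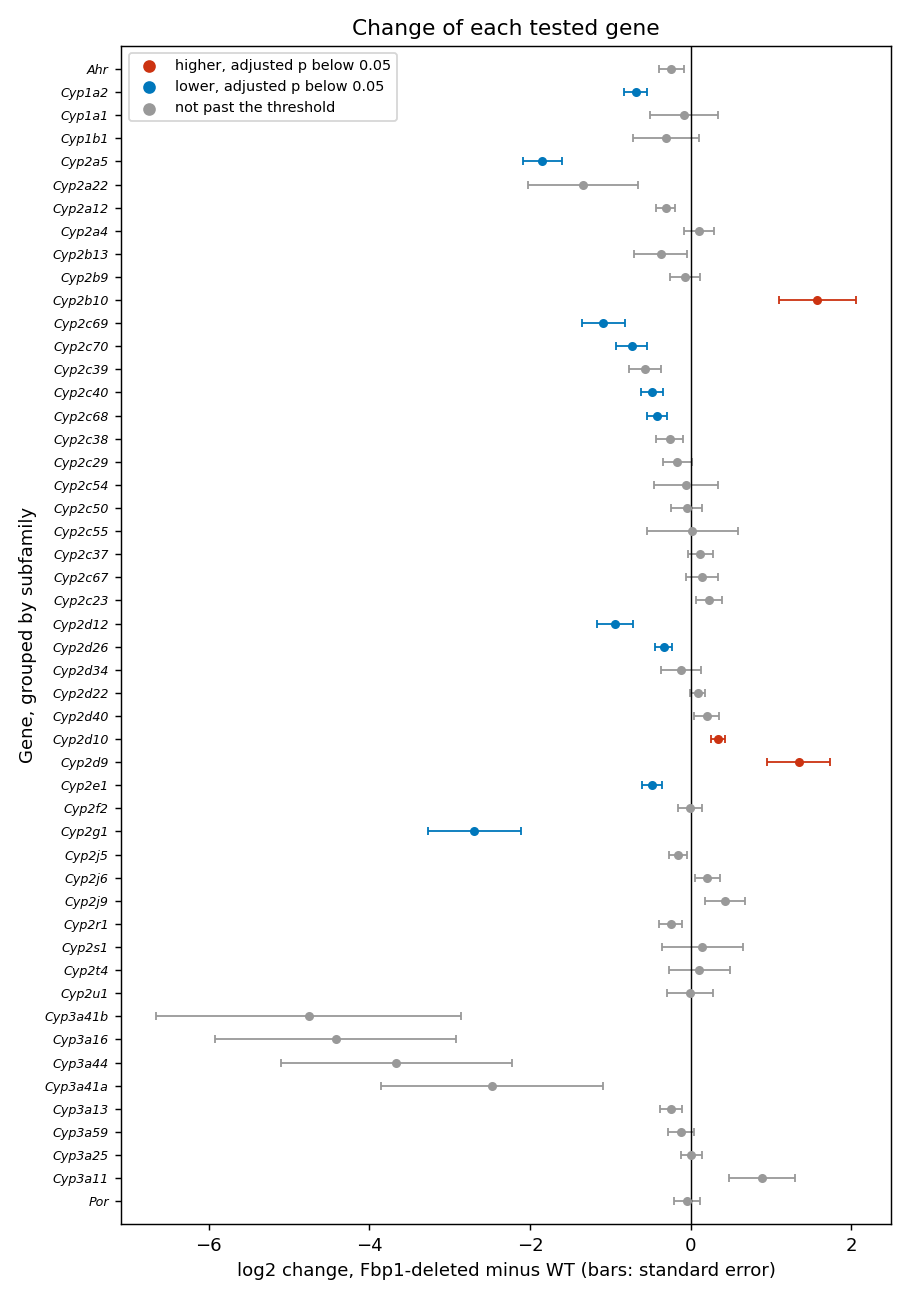
Log2 change (Fbp1-deleted minus WT) of each of the 50 tested genes with its standard error, ordered by subfamily, in red or blue where the edgeR adjusted p was below 0.05. Within Cyp2a, Cyp2c and Cyp2d, near-identical genes lie at different distances from 0, and the widest bars belong to 4 Cyp3a genes.

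Cyp1a2 held nearly all of the Cyp1a signal and oxidises caffeine and aromatic amines. The gene (ENSMUSG00000032310.4) lies on chromosome 9 from 57676937 to 57683703, minus strand, in GRCm38. Its levels in WT replicates 1 to 5 were 407, 429, 599, 491 and 467 CPM, and in Fbp1-deleted replicates 6 to 10 they were 276, 320, 243, 259 and 389 CPM. Each Fbp1-deleted library was below each WT library. Cyp1a2 fell by 0.69 on the log2 scale (SE 0.14, edgeR adjusted p = 0.00512), or 1.61-fold. Cyp1a1, the most inducible target of Ahr, stayed between 0.334 and 1.65 CPM in all libraries (change -0.09, SE 0.42), and Cyp1b1 between 0.276 and 0.921 CPM. Ahr itself (ENSMUSG00000019256.17) was at 28.2, 26.2, 29.0, 32.2 and 45.2 CPM in WT and 30.7, 25.0, 22.7, 25.2 and 32.6 CPM in Fbp1-deleted liver. Its change of -0.24 (SE 0.15) did not pass the test (edgeR adjusted p = 0.292). Of 6 tested Ahr targets outside the P450s, 1 rose and none fell, where 10.6% of all genes tested rose and 10% fell. Tiparp, a repressor of Ahr, rose by 1.15 (SE 0.28, edgeR adjusted p = 0.0132, and 0.0679 without both WT replicates 4 and 5).

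Cyp2a5, a coumarin hydroxylase that also oxidises nicotine, showed the smallest adjusted p of the members. The gene (ENSMUSG00000005547.14) lies on chromosome 7 from 26835305 to 26843548, plus strand. WT replicates 1 to 5 held 2871, 2952, 1994, 1051 and 1993 CPM, and Fbp1-deleted replicates 6 to 10 held 620.1, 622, 532, 514 and 732 CPM. The groups did not overlap, and WT replicate 4 was the lowest of the WT libraries. Cyp2a5 fell by 1.85 on the log2 scale (SE 0.24, edgeR adjusted p = 0.000447), or 3.60-fold, and by 2.12 without WT replicates 4 and 5 (edgeR adjusted p = 2.84e-05).

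Cyp2a4, a testosterone hydroxylase (ENSMUSG00000074254.4, chromosome 7, 26307169 to 26315088, plus strand), did not follow its near-identical copy Cyp2a5. Its levels were 1011, 1084, 825, 536 and 1334 CPM in WT and 928, 1065, 1072, 1086 and 994 CPM in Fbp1-deleted liver. The groups overlapped, with a change of 0.10 (SE 0.19, edgeR adjusted p = 0.733). The antisense gene Gm42375 reaches to 26307286 and so overlaps only the start of Cyp2a4. Reads from that stretch cannot be told apart without strand. The log2 ratio of Cyp2a5 to Cyp2a4 within a library was 1.16 ± 0.38 (SD, n = 5) in WT and -0.78 ± 0.27 (SD, n = 5) in Fbp1-deleted liver. It was above 0 in all WT libraries, between 0.58 and 1.51, and below 0 in all Fbp1-deleted ones, between -1.08 and -0.44. The difference was -1.93 (exact two-sided permutation test, p = 0.00794, the smallest that 5 against 5 allows; adjusted p = 0.0159 over the 4 ratios computed). The 4 ratios were chosen because they hold genes called in these same libraries. This p therefore largely restates the call of Cyp2a5 and is no separate support. Their sum was 3882, 4035, 2818, 1587 and 3327 CPM in WT and 1548, 1687, 1603, 1599 and 1726 CPM in Fbp1-deleted liver, so it overlapped through WT replicate 4 alone.

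The other Cyp2a members did not pass the test. Cyp2a12 was at 556 ± 86.0 and 448 ± 36.5 CPM (change -0.31, edgeR adjusted p = 0.0751; 0.0424 without WT replicate 4). Cyp2a22 was at 138 ± 71.9 and 54.1 ± 37.0 CPM, with WT replicate 4 at 19.6 CPM against 124 to 203 in the other WT libraries (edgeR adjusted p = 0.205). WT replicate 4 was thus the lowest WT library for all 4 Cyp2a genes.

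Cyp2g1, best known from the olfactory mucosa, lies just upstream of Cyp2a5 on chromosome 7 (ENSMUSG00000049685.8, 26808892 to 26821205, plus strand). It was a low transcript at 5.85, 5.80, 4.77, 3.11 and 22.4 CPM in WT and 1.92, 0.669, 1.84, 0.850 and 1.10 CPM in Fbp1-deleted liver. Every Fbp1-deleted library was below every WT library. Cyp2g1 fell by 2.70 (SE 0.58, edgeR adjusted p = 0.0101), and by 1.93 without WT replicate 5, which held the highest level. Without both WT replicates 4 and 5 the change was -2.09 (edgeR adjusted p = 0.00206).

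**Figure D3:**
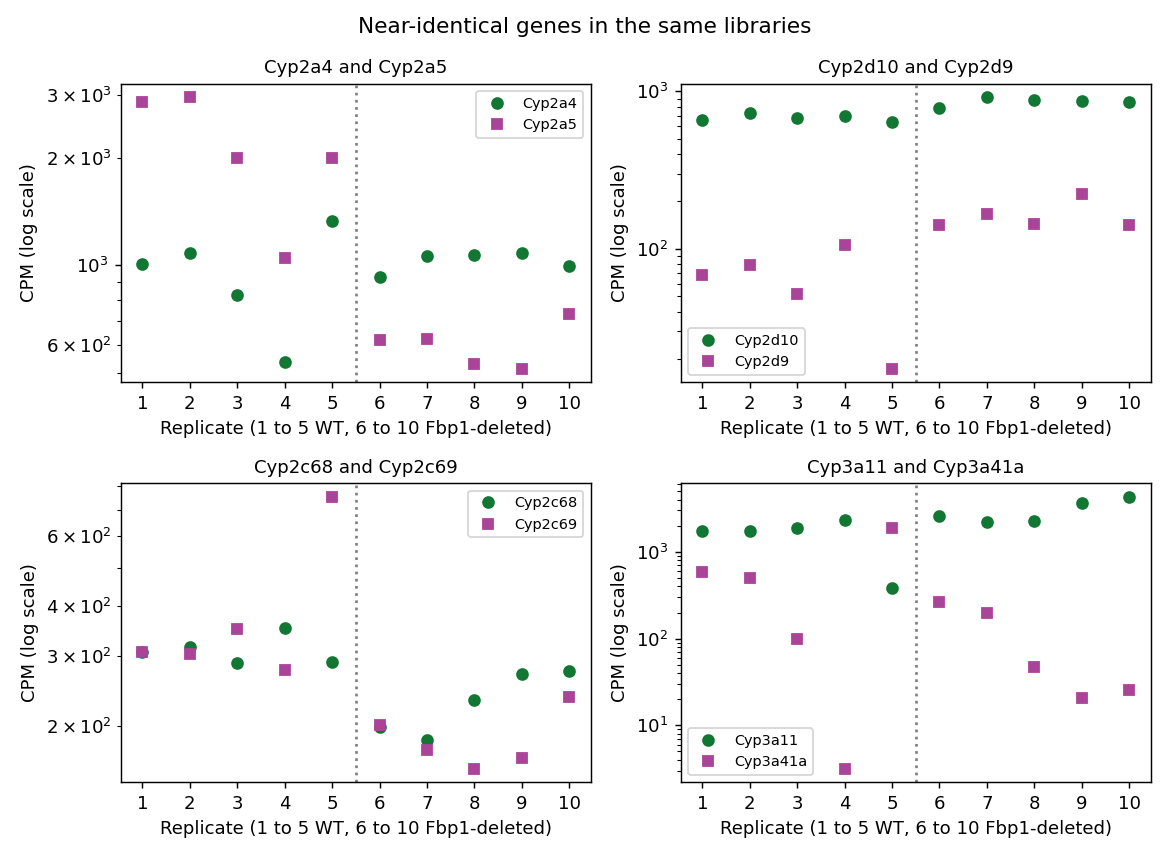
CPM (log axes) of 4 pairs of related genes in each library, replicates 1 to 5 WT and 6 to 10 Fbp1-deleted, parted by the dotted line. Cyp2a5 lies above Cyp2a4 in all WT libraries and below it in all Fbp1-deleted ones, and Cyp3a41a exceeds Cyp3a11 in WT replicate 5 alone.

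In Cyp2b the classical CAR target Cyp2b10 (ENSMUSG00000030483.14, chromosome 7, 25897620 to 25926624, plus strand) moved opposite to most members. It was at 16.5, 17.2, 62.9, 58.7 and 33.1 CPM in WT and 106, 107, 45, 144 and 157 CPM in Fbp1-deleted liver. Only Fbp1-deleted replicate 8 lay within the WT range. Cyp2b10 rose by 1.57 (SE 0.48, edgeR adjusted p = 0.0462), or 2.98-fold. Its adjusted p rose to between 0.0715 and 0.105, and the call was lost, without any 1 of WT replicates 1, 2 and 5 and Fbp1-deleted replicates 6, 7, 9 and 10, and without both WT replicates 4 and 5 (adjusted p = 0.102, change 1.79). Cyp2b9 and Cyp2b13, which are 92.74% identical in coding sequence and typical of female liver, did not pass the test. Cyp2b9 was at 299 ± 86.2 and 285 ± 42.7 CPM, and Cyp2b13 at 148 ± 65.5 and 114 ± 43.1.

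Cyp2c, whose members epoxidise arachidonic acid and oxidise many drugs, had 4 of 13 tested members lower and none higher. Among all genes tested, 10% were lower and 10.6% higher. The calls of Cyp2c40, Cyp2c68 and Cyp2c69 are not independent, because these genes are copies of one another. Cyp2c40, Cyp2c67, Cyp2c68 and Cyp2c69 form a block of near-identical genes on the minus strand of chromosome 19, from 39608842 (Cyp2c67) to 39886799 (Cyp2c69). Their sum was 918, 951, 1069, 1077 and 1433 CPM in WT and 657, 607, 730, 805 and 857 CPM in Fbp1-deleted liver, so that all Fbp1-deleted libraries were lower than all WT libraries. This sum does not depend on how reads were divided among the 4 genes.

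Within that block Cyp2c40, Cyp2c68 and Cyp2c69 fell, and Cyp2c67 did not pass the test. Cyp2c69 (ENSMUSG00000092008.1) was at 306, 302, 350, 277 and 753 CPM in WT and 201, 174, 156, 166 and 237 CPM in Fbp1-deleted liver. It fell by 1.09 (SE 0.27, edgeR adjusted p = 0.0170) and by 0.78 without WT replicates 4 and 5 (edgeR adjusted p = 0.00522), and the call was lost with no filter on low counts (adjusted p = 0.0683). The groups did not overlap, and WT replicate 5 stood far above the rest. Cyp2c68 (ENSMUSG00000074882.3) was at 307, 316, 288, 352 and 289 CPM in WT and 198, 184, 233, 269 and 275 CPM in Fbp1-deleted liver, without overlap. It fell by 0.42 (SE 0.12, edgeR adjusted p = 0.0283), a call lost on leaving out any 1 of WT replicates 2 and 4 and Fbp1-deleted replicates 6 and 7 (adjusted p from 0.0580 to 0.0828), or both WT replicates 4 and 5 (0.0814). Cyp2c40 (ENSMUSG00000025004.15) was at 227, 255, 293, 307 and 315 CPM in WT and 160, 158, 218, 235 and 228 CPM in Fbp1-deleted liver, and fell by 0.48 (SE 0.14, edgeR adjusted p = 0.0265). That call was lost on leaving out any 1 of WT replicates 3 and 5 and Fbp1-deleted replicates 6 and 7 (adjusted p from 0.0522 to 0.0766), or both WT replicates 4 and 5 (0.129). The fourth gene, Cyp2c67, was at 102 ± 33.7 and 113 ± 17.9 CPM (edgeR adjusted p = 0.655). Neither the ratio of Cyp2c68 to Cyp2c40 (difference 0.06, exact permutation test, p = 0.611) nor that of Cyp2c69 to Cyp2c40 (-0.50, exact permutation test, p = 0.119, adjusted p = 0.159) passed the test.

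Cyp2c70 stands outside that block and makes muricholic acids, bile acids typical of mice. The gene (ENSMUSG00000060613.10) lies on chromosome 19 from 40153353 to 40187333, minus strand. It was at 191, 226, 271, 272 and 269 CPM in WT and 110.5, 93.5, 168, 165 and 201 CPM in Fbp1-deleted liver. Fbp1-deleted replicate 10 alone lay within the WT range. Cyp2c70 fell by 0.73 (SE 0.19, edgeR adjusted p = 0.0189), a call lost without both WT replicates 4 and 5 (change -0.64, adjusted p = 0.0922).

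The remaining 8 tested Cyp2c genes did not pass the test. Cyp2c29, the most abundant of the subfamily per kb, was at 857, 957, 992, 1004 and 966 CPM in WT and 724, 639, 697, 801 and 1394 CPM in Fbp1-deleted liver. All Fbp1-deleted libraries but replicate 10 were below the WT range, and without replicate 10 the change was -0.42 (edgeR adjusted p = 0.0157) in place of -0.17 (adjusted p = 0.560). Cyp2c39 was at 6.86 ± 1.60 and 4.62 ± 0.937 CPM (edgeR adjusted p = 0.0573; 0.0224 without WT replicate 4 and 0.0191 without both WT replicates 4 and 5). The sum of the near-identical Cyp2c37, Cyp2c50 and Cyp2c54 was 1337 ± 211 CPM in WT and 1381 ± 283 in Fbp1-deleted liver.

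Cyp2d held calls in both directions among close neighbours on chromosome 15. Cyp2d9, a steroid hydroxylase typical of male liver (ENSMUSG00000068086.6, 82433437 to 82456845, plus strand), was at 68.5, 78.5, 51.7, 106 and 17.3 CPM in WT and 142, 165, 143, 224 and 141 CPM in Fbp1-deleted liver. All Fbp1-deleted libraries were above all WT libraries. Cyp2d9 rose by 1.34 (SE 0.39, edgeR adjusted p = 0.0378), or 2.54-fold. Its call was lost when any library except WT replicates 4 and 5 was left out (adjusted p between 0.0525 and 0.0900). It held without both of those (change 1.29, edgeR adjusted p = 0.00138). The span of Cyp2d9 includes the pseudogenes Gm46501 and Gm49421 on the same strand, so its count is uncertain.

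Cyp2d10 (ENSMUSG00000094806.2, 82402846 to 82407195, minus strand), 92.46% identical to Cyp2d9, varied little within groups. It was at 660, 730, 679, 701 and 636 CPM in WT and 788, 918, 888, 865 and 854 CPM in Fbp1-deleted liver, without overlap. Cyp2d10 rose by 0.34 (SE 0.09, edgeR adjusted p = 0.0174), a call lost without WT replicate 5 (adjusted p = 0.0501), without both WT replicates 4 and 5 (0.0791) and with library totals alone (0.0612). The low transcript Cyp2d12 (ENSMUSG00000096852.2, 82555072 to 82560403, plus strand) went the other way, from 4.33, 4.62, 3.03, 3.06 and 3.60 CPM in WT to 2.06, 2.51, 1.94, 1.27 and 1.87 CPM in Fbp1-deleted liver. It fell by 0.95 (SE 0.22, edgeR adjusted p = 0.00945), and its groups did not overlap. The log2 ratio of Cyp2d9 to Cyp2d10 was higher by 1.20 in Fbp1-deleted liver (exact permutation test, p = 0.00794, adjusted p = 0.0159 over 4 ratios). This pair was chosen because its genes were called in these same libraries, so the p of the ratio is no separate support.

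The sum of Cyp2d9, Cyp2d10, Cyp2d11, Cyp2d12 and Cyp2d34 was 737, 816, 737, 812 and 660 CPM in WT and 935, 1090, 1038, 1093 and 999 CPM in Fbp1-deleted liver, higher in every library. Cyp2d26, the most abundant gene of the subfamily (ENSMUSG00000022445.7, 82790101 to 82794294, minus strand), was at 1133, 1286, 1253, 1159 and 1409 CPM in WT and 978, 1143, 1056, 884 and 872 CPM in Fbp1-deleted liver. Only Fbp1-deleted replicate 7 lay within the WT range. Cyp2d26 fell by 0.34 (SE 0.11, edgeR adjusted p = 0.0411), a call lost on leaving out any 1 of WT replicates 2, 3 and 5 and Fbp1-deleted replicates 6, 9 and 10 (adjusted p from 0.0692 to 0.113), or both WT replicates 4 and 5 (0.111). Cyp2d26 and the group of Cyp2d9 and Cyp2d10 thus moved in opposite directions within the subfamily sum. Cyp2d22 (276 ± 17.3 and 294 ± 25.9 CPM) and Cyp2d40 (54.0 ± 9.24 and 61.9 ± 12.9 CPM) did not pass the test.

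Cyp2e1 oxidises ethanol, acetone and paracetamol and marks the cells around the central vein. The gene (ENSMUSG00000025479.9) lies on chromosome 7 from 140763739 to 140774987, plus strand. WT replicates 1 to 5 held 4877, 5088, 7561, 6628 and 6473 CPM, and Fbp1-deleted replicates 6 to 10 held 4649, 4411, 4391, 4172 and 4339 CPM. The lowest WT library was just above the highest Fbp1-deleted one, and the WT spread (SD 1126) was far wider than the Fbp1-deleted spread (SD 171). Cyp2e1 fell by 0.48 (SE 0.13, edgeR adjusted p = 0.0175), or 1.40-fold. The call was lost without both WT replicates 4 and 5, at a change of -0.42 (adjusted p = 0.0813). Of 13 other pericentral genes, 3 fell (Tbx3, Rgn and Rnase4) and 1 rose (Ahcyl1). Of 12 periportal genes other than Fbp1, 7 rose, among them Asl, Sdsl and Cdh1, and 1 fell (Pigr). Among all genes tested, 10% fell and 10.6% rose. The calls of Rnase4, the periportal Arg1 and Pigr were lost without both WT replicates 4 and 5 (adjusted p = 0.103, 0.0843 and 0.139). The part of these zonation genes in the result for Cyp2e1 was not tested.

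Cyp2f2, Cyp2j5 and the single-gene subfamilies Cyp2r, Cyp2s, Cyp2t and Cyp2u did not pass the test. Cyp2f2, which activates naphthalene and is abundant in airway cells as well as liver, was at 396, 540, 775, 685 and 598 CPM in WT and 540, 601, 635, 614 and 573 CPM in Fbp1-deleted liver. WT replicates 4 and 5, with lung transcripts, lay within the range of the other WT libraries for this gene. Cyp2j5, an arachidonic acid epoxygenase, was at 402 ± 54.0 and 360 ± 33.8 CPM. The vitamin D hydroxylase Cyp2r1 was at 6.25 ± 0.532 and 5.24 ± 0.839 CPM, and the fatty acid hydroxylase Cyp2u1 at 3.86 ± 1.49 and 3.84 ± 1.09. Cyp2s1 and Cyp2t4 stayed at or below 1.64 CPM in all libraries.

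Cyp3a, the subfamily that PXR controls, split into one abundant gene and several that varied by orders of magnitude within a genotype. Cyp3a11 (ENSMUSG00000056035.8, chromosome 5, 145854426 to 145879964, minus strand) was at 1739, 1744, 1908, 2352 and 383 CPM in WT and 2618, 2222, 2272, 3653 and 4296 CPM in Fbp1-deleted liver. WT replicate 5 was far below the rest, and WT replicate 4 alone reached the Fbp1-deleted range. The change of 0.89 (SE 0.41) did not pass the test (edgeR adjusted p = 0.156). Without both WT replicates 4 and 5 it was 0.73 (edgeR adjusted p = 0.0420).

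Cyp3a16, Cyp3a41a, Cyp3a41b and Cyp3a44, known as female-typical in mouse liver, ran the other way in WT replicate 5. Cyp3a41a (ENSMUSG00000075551.4) was at 589, 495, 99.5, 3.17 and 1889 CPM in WT and 265, 196, 46.5, 20.7 and 25.7 CPM in Fbp1-deleted liver. WT replicate 5 was highest and WT replicate 4 lowest of all 10 libraries. Cyp3a44 was at 15.8, 14.6, 7.91, 1.09 and 277 CPM in WT and 9.63, 7.86, 2.23, 2.67 and 2.37 CPM in Fbp1-deleted liver. Cyp3a41b ranged from 0.162 to 348 CPM in WT and from 0.145 to 7.38 CPM in Fbp1-deleted liver. Cyp3a16 ranged from 0.0546 to 160 CPM in WT and from 0.436 to 4.98 CPM in Fbp1-deleted liver. All 4 genes were highest in WT replicate 5 and higher in Fbp1-deleted replicates 6 and 7 than in replicates 8 to 10. None passed the test, with fitted changes between -4.76 and -2.47 and standard errors between 1.38 and 1.89 (edgeR adjusted p between 0.0725 and 0.25). Without WT replicate 5 the fitted changes were -1.43 for Cyp3a41a, -1.01 for Cyp3a44, -2.40 for Cyp3a41b and -3.29 for Cyp3a16. Cyp3a16 had an adjusted p of 0.0311 without WT replicate 4, and DESeq2's Wald test gave 0.00582 for it and 0.0157 for Cyp3a41b.

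The sum of Cyp3a11 with these 4 near-identical genes was steadier, at 2414, 2334, 2018, 2356 and 3056 CPM in WT and 2905, 2436, 2321, 3678 and 4326 CPM in Fbp1-deleted liver. The groups still overlapped. Cyp3a25 (333 ± 48.0 and 335 ± 59.5 CPM), Cyp3a59 (40.2 ± 6.23 and 36.9 ± 8.95 CPM) and Cyp3a13 (224 ± 46.3 and 189 ± 24.4 CPM) were close in both groups. Other genes known to differ between the sexes varied between the same libraries. The female-typical sulfotransferase Sult2a1 was at 374, 358, 87.2, 1.69 and 470.5 CPM in WT and 306, 284, 24.7, 6.68 and 10.7 CPM in Fbp1-deleted liver. The male-typical transporter Slco1a1 was at 1.38, 1.23, 8.07, 66.4 and 2.37 CPM in WT and 20.3, 17.3, 62.9, 73.1 and 75.7 CPM in Fbp1-deleted liver. The 4 libraries lowest in Cyp3a41a (WT replicate 4 and Fbp1-deleted replicates 8 to 10) were the 4 lowest in Sult2a1 and the 4 highest in Slco1a1. Sult2a1 and Slco1a1 are described here after their values were seen, and their part in the spread of the Cyp3a genes was not tested.

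Por, which serves all microsomal P450s (ENSMUSG00000005514.14, chromosome 5, 135670033 to 135735326, plus strand), was at 881, 1085, 1627, 1589 and 1401 CPM in WT and 1200, 1404, 1183, 1471 and 1134 CPM in Fbp1-deleted liver. The Fbp1-deleted libraries lay within the WT range, and the change was -0.04 (SE 0.16, edgeR adjusted p = 0.878). Of 8 other electron donors and P450 partners, 4 fell and none rose, against 10% and 10.6% of all genes tested. Their median change was -0.43. Cytochrome b5 (Cyb5a), which aids many P450 reactions, fell by 0.52 from 910 ± 108 to 633 ± 95.4 CPM (edgeR adjusted p = 0.00959). The other 3 were mitochondrial: the outer membrane cytochrome Cyb5b, the ferredoxin Fdx1 and its reductase Fdxr, which fell by 0.52, 0.39 and 0.76. None of these 4 genes overlapped between groups, where 6.89% of all genes tested were lower without overlap.

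**Figure D4:**
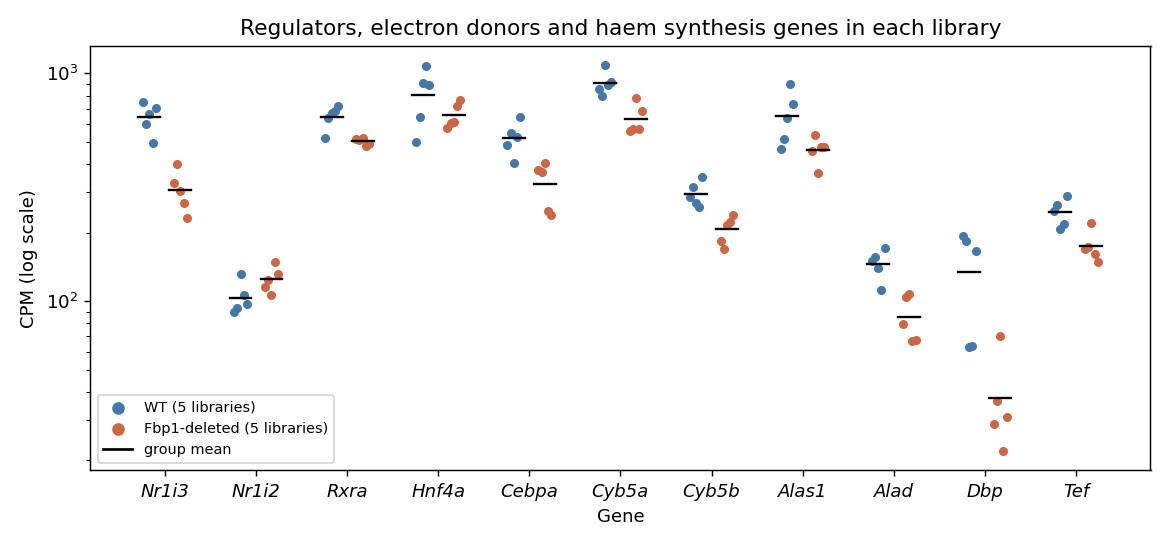
CPM (log axis) of 11 regulators, electron donors and haem synthesis genes in each library, WT in blue and Fbp1-deleted in orange, with the group mean as a bar. Nr1i3 lies between 494 and 747 CPM in WT and between 231 and 399.5 in Fbp1-deleted liver, whereas Nr1i2 and Hnf4a overlap.

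Of 17 receptors, partners and hepatocyte factors that act on P450 genes, 5 fell, none rose, and the median change was -0.13. Among all genes tested, 10% fell and 10.6% rose. Nr1i3, which encodes CAR, was at 747, 599, 663, 494 and 707 CPM in WT and 330, 399.5, 303, 269 and 231 CPM in Fbp1-deleted liver. It fell by 1.07 (SE 0.15, edgeR adjusted p = 0.000478) with no overlap between groups. Cyp2b10 rose in the same livers. Rxra, the shared partner of CAR and PXR, fell by 0.36 (edgeR adjusted p = 0.0242; 0.126 without both WT replicates 4 and 5), and its relative Rxrg by 1.14 (adjusted p = 0.00152). The hepatocyte factor Cebpa fell by 0.67 (adjusted p = 0.0126; 0.0645 without those 2 libraries), and the glucocorticoid receptor Nr3c1 by 0.51 (adjusted p = 0.00744). Neither Nr1i2 (104 ± 16.5 and 125 ± 16.1 CPM, adjusted p = 0.134) nor Hnf4a (805 ± 229 and 656 ± 82.6 CPM, adjusted p = 0.268) passed the test.

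Of 14 tested targets of CAR and PXR outside the P450s, 1 rose and 3 fell, with a median change of -0.12, where 10.6% of all genes tested rose and 10% fell. The glucuronosyltransferase Ugt1a9 rose by 0.74, while Gadd45b, the transporter Abcb1a and the aldehyde dehydrogenase Aldh1a1 fell by 1.08, 0.89 and 0.74 (edgeR adjusted p between 0.00433 and 0.0391 for the 4 genes). Without both WT replicates 4 and 5 the call of Ugt1a9 was lost (adjusted p = 0.0933). Of 7 circadian bZIP factors and their repressors, which set the daily rhythm of Cyp2a5 and other P450s, 2 fell, against 10% of all genes tested. Dbp was at 193, 184, 62.9, 63.7 and 166 CPM in WT and 29.0, 36.4, 70.1, 22.0 and 31.0 CPM in Fbp1-deleted liver, and fell by 1.83 (SE 0.44, edgeR adjusted p = 0.0189). Tef fell by 0.49 (adjusted p = 0.0149). The labels do not state the hour of collection, and its part in these values was not tested.

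Haem, which every P450 carries, is made from glycine and succinyl-CoA by a pathway that Alas1 limits. Of 15 genes of haem synthesis and breakdown, 3 fell and 1 rose, with a median change of -0.10. Among all genes tested, 10% fell and 10.6% rose. Alas1 was at 651 ± 176 CPM in WT and 462 ± 61.6 in Fbp1-deleted liver, which did not pass the test (edgeR adjusted p = 0.0518). Alad, the next enzyme of the pathway, fell by 0.78 from 146 ± 22.0 to 85.1 ± 19.6 CPM (adjusted p = 0.00393), and the porphyrin transporter Abcb6 fell by 0.34 (adjusted p = 0.0129). The biliverdin reductase Blvra fell by 0.56 and the haem oxygenase Hmox2 rose by 0.33. Without both WT replicates 4 and 5 the calls of Abcb6 (adjusted p = 0.0613) and Hmox2 (0.0507) were lost.

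Growth hormone signalling through STAT5 sets the sex pattern of many P450s, and 5 of its 8 listed genes fell, against 10% of all genes tested. Without both WT replicates 4 and 5, 4 fell, against 7.72% of all genes, and Cish had an edgeR adjusted p of 0.0620. Socs2, a feedback target, fell by 2.70 and Igfals by 1.94, Stat5a fell by 1.11 and Igf1 by 0.68 (edgeR adjusted p between 0.000704 and 0.00394). Of 12 female-biased genes outside the P450s, 5 fell and none rose, against 10% and 10.6% of all genes tested. Among the 5 were Acot3 (-2.02) and Gstt3 (-1.23). Of 10 tested male-biased genes, 2 rose (Elovl3 and Bcl6) and 1 fell (Selenbp2). Of 12 acute phase genes, whose rise is known to go with lower P450 expression, 2 fell (Saa3 and Apcs) and none rose. For lists this short, the male-biased and acute phase counts are near the shares of all genes tested. Macrophage markers moved too, with 3 of 6 lower, against 10% of all genes tested. Their sums lay between 182 and 258 CPM in WT and between 141 and 207 CPM in Fbp1-deleted liver. The part of these groups in the P450 changes was not tested.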

How the data were processed

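The authors deposited 1 table of estimated counts per gene, 1 column per liver. Per the submitters' processing notes, CASAVA, Salmon and GRCm38 were used, without versions, and whether counts were adjusted for transcript length is not given in the sources used here. The submitters' design text describes STAR and featureCounts instead, and the table was taken here as Salmon estimates. All values were whole numbers. Of 53392 identifiers, 52175 matched GENCODE M21 with their version and 1180 with another version. Totals were between 17778395 and 23894812 counts per library. Between libraries of a group, chi-square per degree of freedom was at least 16.2, so no library was counted as a duplicate.

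Genes passing filterByExpr (15392) were fitted in edgeR 4.0.16 (R 4.3.3) with TMM factors and a robust quasi-likelihood test of Fbp1-deleted against WT. P-values were adjusted by Benjamini-Hochberg over all genes tested. CPM uses TMM-scaled totals, and SE is the log2 change over the root of the F statistic. The fit was tested on simulated data. There it recovered 56 of 100 genes changed 2-fold and 88 of 100 changed 4-fold, with 10 false calls. Alternatives were RLE factors, library totals, 2 other filters, DESeq2 1.42.0, limma-voom (limma 3.58.1), a threshold of 0.01 and each library left out. The fit without both WT libraries with lung transcripts and the exact permutation tests of 4 ratios (scipy 1.17.1) were added after values were seen. Each ratio set a called gene against its most identical tested copy. Pairs whose genes parted the groups in opposite directions were left out. The members and lists were chosen with earlier results of these data known.

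Values per library are given for members past the threshold, Por, Ahr, the leading gene of a subfamily and near-identical genes. From each list up to 4 called genes with the smallest adjusted p are named, or those that fill a count; 1 gene that this rule names is not reported here. Further members and Sult2a1, Slco1a1, Nr1i2, Hnf4a and Alas1 were chosen after their values were seen. Identity was computed from GENCODE coding sequences in place of proteins, which were not used here. Promoters are RefSeq's (GRCm38.p6), found for 54 of 63 members.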

Additional observations from a re-analysis of the deposited data

Results flagged for a closer look

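In 6 of 66 groups of 5 libraries, the highest library lay farther from its neighbour than Dixon's criterion allows (a gap above 0.71 of the group's range), and chance flags about 1 in 20 groups. In WT replicate 5, Cyp2c69 was at 753 CPM against 350 in the next WT library, Cyp2g1 at 22.4 against 5.85, Cyp3a41b at 348 against 31.3 and Cyp3a44 at 277 against 15.8. Of these 4 genes, Cyp2c69 and Cyp2g1 fell also without this library, which held lung transcripts as well. In Fbp1-deleted liver, Cyp2c29 was at 1394 CPM in replicate 10 against 801 in the next library, and Cyp2u1 at 5.77 CPM in replicate 8 against 3.50. The part of lung RNA, sex-typical expression or other differences between mice in these values was not tested.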

How the results depend on the processing

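For the 50 members tested, 845 results under alternatives were computed. The side of the threshold was the same in 790 (in 51 of these the change, past the threshold in neither fit, had the other sign), 43 lost the call, 12 gained one and no called change reversed. Of 13 calls, 7 were kept in all fits that left out 1 library, and 4 (Cyp1a2, Cyp2a5, Cyp2d12 and Cyp2g1) in all settings but the threshold of 0.01. At that threshold, 678 genes were higher and 633 lower, and members counted 0 higher and 3 lower. Without a filter on low counts, which raised the genes tested from 15392 to 33695, edgeR gave 0 members higher, with 3 at an unadjusted p under 0.05. With the filter, DESeq2 and limma-voom gave 3 each. With both WT libraries that hold lung transcripts left out, 6 members were lower. Leaving out 1 library gave between 1066 and 2060 genes higher, 1019 and 1858 lower, 1 and 3 members higher and 7 and 12 members lower. The log2 ratio of the Cyp2d sums was -0.06 with library totals and between -0.01 and 0.05 with a library left out. The causes of these shifts were not tested. No paired analysis was possible because the groups share no replicate numbers. Depth limits the 13 untested members, each below 0.6 CPM in every library, and how reads were divided between near-identical genes adds an error outside the replicate spread.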
